A study of Mus musculus with 12 samples.

Results

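The regions described here are those listed for FLAG-tagged Zscan4 at 3 nuclear genes, Lars2, Sfi1 and Mir101c, and on the mitochondrial genome, where the genes mt-Rnr2 and ND4 hold the highest scores. They were chosen as places where reads of high-copy sequence (ribosomal, amplified or mitochondrial) are known to pile up in sequencing data. A region belonged to a nuclear gene when its midpoint lay in the gene body or within 20 kb of it, and every region on the mitochondrial genome was taken. This gave 15 of the 4973 listed regions (0.302%), of which 6 lay at Sfi1, 2 at Mir101c, 1 at Lars2 and 6 on the mitochondrial genome. Of all annotated nuclear genes 12.9% had at least 1 listed region within the same limit, as all 3 nuclear genes did. The genes were picked with their region scores in view, so their counts, scores and ranks are a description and carry no test.

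The list came from 1 chromatin immunoprecipitation with an anti-FLAG antibody. It was made from J1 mouse embryonic stem cells (strain 12910la in the labels) whose genotype is given as Zscan4 overexpression. They had received 1000 ng of a CMV-promoter plasmid that carries the coding sequence of Zscan4c behind a FLAG tag, were put under 500 ug/ml G418 after 24 h and were picked as single clones after 10 days. The input sample titled OE_Input was labelled with the same genotype. The other 10 samples of the study (5 overexpressing, 5 wild type, for H3K27ac, H3K14ac, H3K4me1 and their inputs) were not analysed here. Each of the 12 labelled samples is a group of 1, so no replicate gives an error for any value. The list holds a position and a score per region and no read counts, so the depth is unknown. The authors' score is a whole number from 10 to 7195 whose scale is not stated in the labels, and rank 1 is the highest.

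Lars2 encodes the enzyme that loads leucine onto tRNA in mitochondria. Sfi1 encodes a centrin-binding protein of the centrosome, known in yeast for the duplication of the spindle pole body. Mir101c encodes a microRNA of the miR-101 family, which is known in mammals for targeting the Polycomb methyltransferase gene Ezh2. mt-Rnr2 encodes the RNA of the large mitochondrial ribosomal subunit, and ND4 a subunit of respiratory complex I. A cell holds many copies of the mitochondrial genome, and assembled chromosome starts in the mouse border on pericentromeric satellite repeats. At such places reads from many copies can be placed on 1 annotated copy, in immunoprecipitated and input DNA alike. Input values were not used here, so how far input DNA would show the same regions was not tested.

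The microRNA is shown first because its mature sequence places Mir101c in its family. In the RefSeq table of build GRCm38.p6, which shares its chromosome sequences with mm10, the 3 family members read as follows, 5′ to 3′, with the seed (bases 2 to 8) in capitals.
mmu-miR-101c: aCAGUACUgugauaacuga
mmu-miR-101b-3p: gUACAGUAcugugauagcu
mmu-miR-101a-3p: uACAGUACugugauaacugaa
All 19 bases of miR-101c stand inside miR-101a-3p, 1 base further along, and 14 of them in a row stand inside miR-101b-3p, 2 bases further along. Because the annotated 5′ ends differ, the 3 seeds in capitals differ and no pair shares one. Mir101c itself lies on chromosome 9 at 3038669 to 3038743 on the minus strand. Its relatives Mir101b (mature arm on chromosome 19 from 29135338) and Mir101a (chromosome 4 from 101346957) had no listed region within 20 kb.

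The highest scores among these places lay near Mir101c, where the assembly of chromosome 9 begins. Both regions there ranked among the first 8 of the list. The region chr9:3023548-3024581 had a score of 4515 (rank 4) and a width of 1034 bp, and its midpoint lay 14.6 kb from the gene. The region chr9:3019855-3021140 had a score of 3513 (rank 8) and a width of 1286 bp, at 18.2 kb. Since Mir101c is on the minus strand, both lay beyond its 3′ end, and neither fell inside any annotated gene.

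The limit of 20 kb cut through a group of regions at this place. Just outside it lay 4 more, at distances from 25.1 to 29.1 kb. From the nearest to the farthest their scores were 740 (rank 36), 893 (rank 31), 1148 (rank 25) and 1484 (rank 20). The 6 regions together covered 6332 of 15294 bp, or 41.4% of the stretch from the first to the last. The 2 regions inside the limit had the 2 highest scores of the 6, and the widest region (2724 bp) had the lowest. Names of the listed regions carry numbers that run along each chromosome. In that run 2 numbers between the outer 4 regions and the inner 2, and 6 numbers after the last, belong to no region analysed here. The next listed region on chromosome 9 lay 3990 kb beyond Mir101c (score 66), and the nearest gene on that side, the pseudogene Gm32390 at 97.6 kb, had no region.

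**Figure D1:**
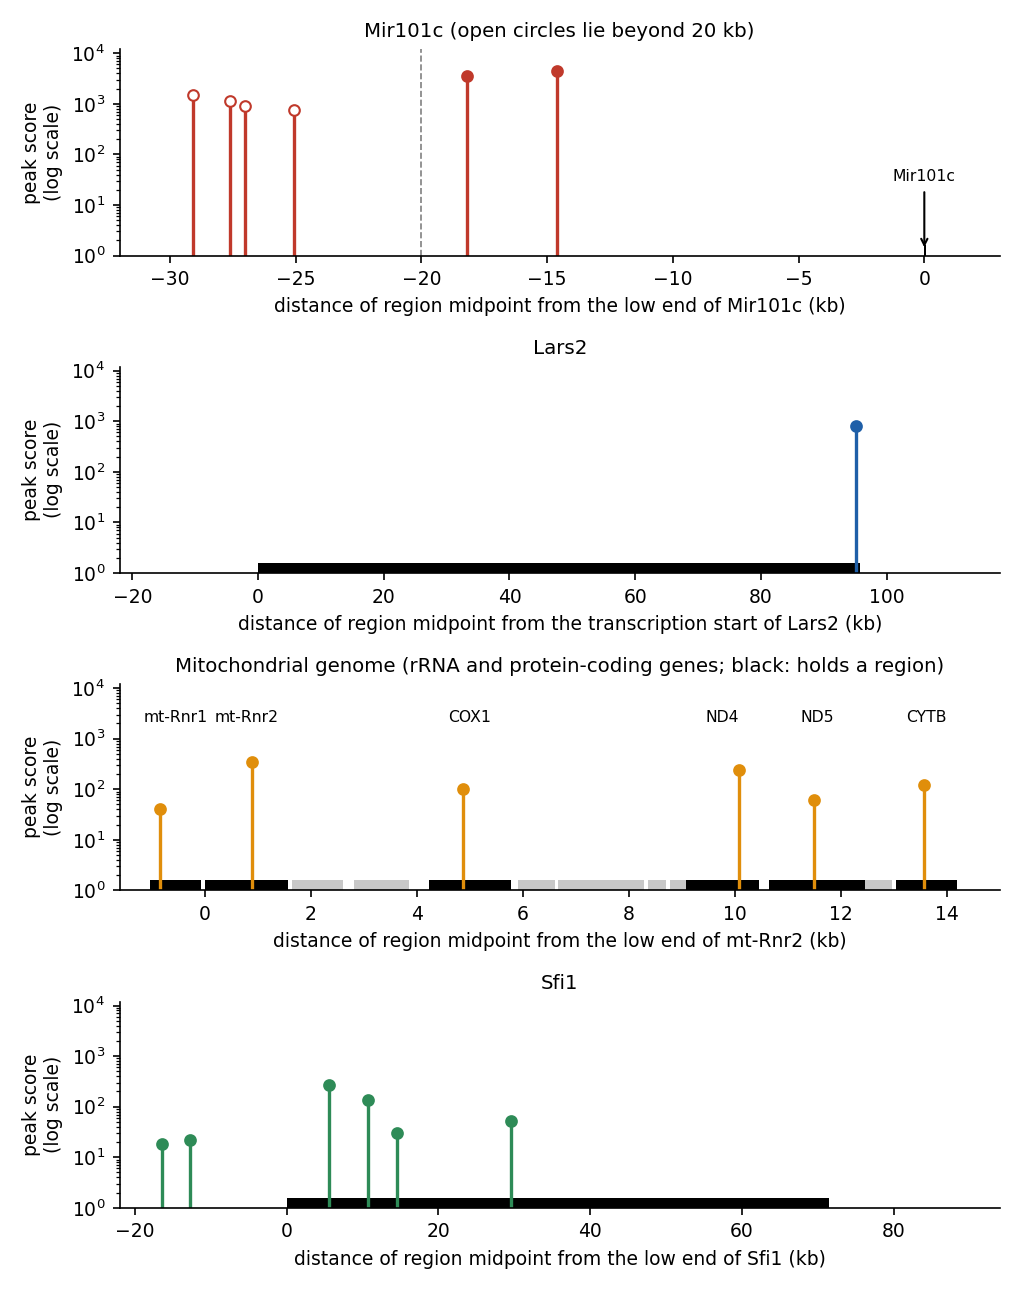
Authors' peak score (log scale) of each listed region against the distance of its midpoint from the gene end named on each axis (kb); black bars are genes, grey bars in the mitochondrial panel are genes with no region, and the dashed line is the 20 kb limit. Near Mir101c 2 regions lie inside the limit and 4 beyond it, Lars2 has 1 region close to its far end, 6 mitochondrial genes hold 1 region each, and the 4 regions in the body of Sfi1 lie within 29.5 kb of its low end, the end with the smaller coordinate.

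Lars2 carried a single region, at the far end of the gene. The gene spans 95.7 kb of chromosome 9 (123366927 to 123462675, plus strand), and the region chr9:123461892-123462111 ended 564 bp before the annotated 3′ end of the gene and its midpoint lay 95.1 kb from the start. Its score was 801 (rank 35), the highest among the 13 regions at these places other than the pair near Mir101c. Whether the region lies in an exon, an intron or an untranslated part was not analysed here, since the gene table gives no exons. No other region lay within 20 kb of the gene. The next ones were a region of score 13 at 36.6 kb beyond the 3′ end, inside the gene Limd1, and a region of score 10 at 114 kb before the start.

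The Lars2 region was among the narrowest of the list while its score was among the highest. It was 220 bp wide, where the narrowest listed region had 219 bp. Among the 35 regions with a score of 801 or more, the median width was 903 bp and the next narrowest had 250 bp. Among the 110 regions of 220 bp or less, the median score was 29.0 and the second highest was 397. Per kb of width the Lars2 region scored 3640 and ranked 8 in the list, against 4370 (rank 5) and 2730 (rank 11) for the pair near Mir101c. The long non-coding RNA gene Gm40586 begins 1.53 kb beyond Lars2, so the region lies within 20 kb of it as well. Neither it nor Gm46137, a long non-coding RNA gene inside Lars2, held a region in its body.

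**Figure D2:**
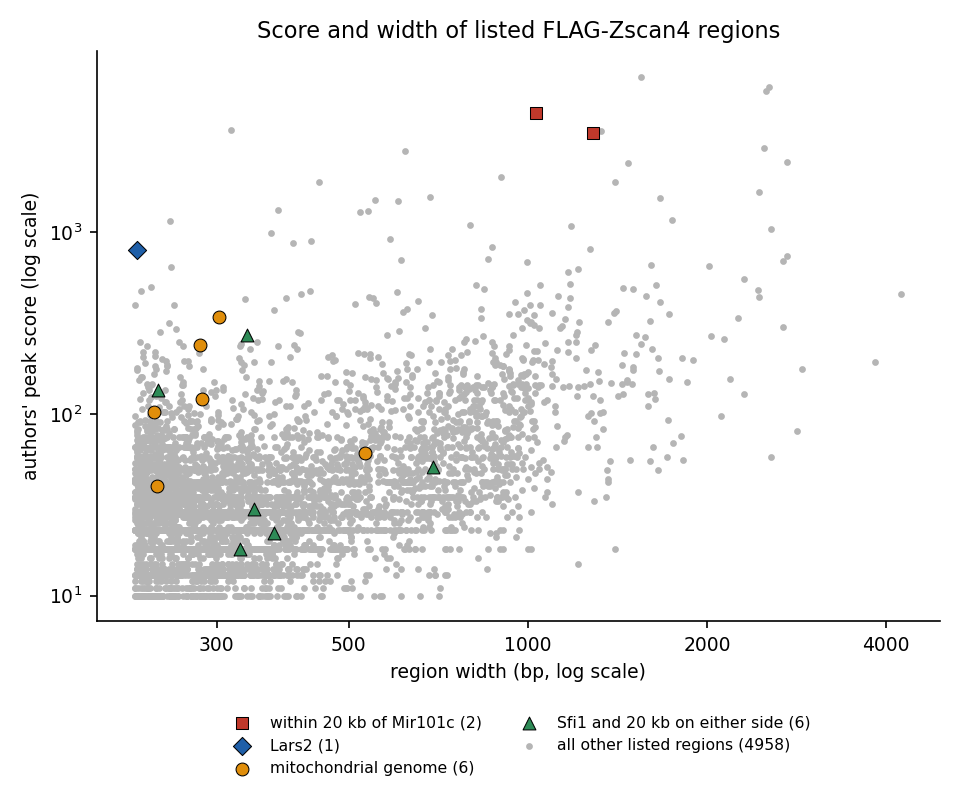
Authors' peak score against region width (bp) for all listed regions, both on log scales; each point is 1 region, coloured points are the 15 regions described here and grey points the other 4958. The Lars2 region (220 bp, score 801) stands at the left edge above the other regions of its width, and the pair near Mir101c lies near the top at 1034 and 1286 bp.

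On the mitochondrial genome FLAG-Zscan4 was listed at 6 separate regions, each inside 1 gene. Both ribosomal RNA genes and 4 of the 13 protein-coding genes held a region midpoint, and none of the 22 tRNA genes did. The length of the genome that each class covers was not taken into account, so nothing is read from these counts. The regions covered 1873 bp, or 12.1% of the annotated span of 15422 bp, with 1014 to 4955 bp between neighbours. All 6 scored above the list median of 33.

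The 2 ribosomal RNA genes held the highest and the lowest of these scores. In mt-Rnr2 (1094 to 2675) the region ran over 1846 to 2148, was 303 bp wide and had a score of 344 (rank 93). In mt-Rnr1, the gene of the small-subunit RNA, the region ran over 131 to 368, was 238 bp wide and had a score of 40 (rank 1952). These genes are near neighbours on the genome, with the gene of a tRNA between them, and from 1 immunoprecipitation the spread of either score is not known.

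Of the 4 protein-coding genes with a region, 2 encode complex I subunits. ND4 (10167 to 11544) held a region at 11037 to 11317 (281 bp) with a score of 240 (rank 140). ND5 held the widest of the 6 regions (12332 to 12864, 533 bp) with a score of 61 (rank 1039). CYTB, the complex III subunit cytochrome b, held a region of score 121 (14529 to 14811, rank 423). COX1, the catalytic subunit of complex IV, held a region of score 103 (5847 to 6081, rank 516). The 5 longest of these mitochondrial genes, ND5 (1824 bp), mt-Rnr2 (1582 bp), COX1 (1545 bp), ND4 (1378 bp) and CYTB (1144 bp), each held a region. ND2 (1038 bp) and ND1 (957 bp) held none, although mt-Rnr1 (955 bp) did. ND3, ND4L, ND6, COX2, COX3, ATP6 and ATP8 held none either. A link between gene length and holding a region was not tested. Every gene of this genome lies within 20 kb of every region on it, so only the place inside a gene separates its genes, and a region in ND4 does not mark ND4 rather than the genome.

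Sfi1 had the most regions of the 3 nuclear genes and the lowest scores. The gene spans 71.5 kb of chromosome 11 (3131850 to 3203347), close to the start of the assembled sequence, and its strand is not in the tables used here. In its body the region chr11:3137219-3137556 had a score of 273 (rank 117) and chr11:3142487-3142725 a score of 135 (rank 360). They were followed by chr11:3146175-3146520 with a score of 30 (rank 2640) and chr11:3161042-3161733 with a score of 51 (rank 1322). These 4 midpoints lay between 5.54 and 29.5 kb from the low-coordinate end, and the remaining 42.0 kb of the gene had no listed region.

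Outside the gene body, 2 weaker regions lay on the low-coordinate side. They were chr11:3115248-3115575 with a score of 18 (rank 3897), at 16.4 kb from Sfi1, and chr11:3118929-3119302 with a score of 22 (rank 3731), at 12.7 kb. Of the 6, 3 scored above the list median of 33 and 3 below it. The pseudogene Pisd-ps1, which overlaps the low end of Sfi1, held no region, nor did Eif4enif1, Gm51877, Gm11400 and Fau-ps2, which overlap its body. Eif4enif1 encodes a transport protein of the translation factor eIF4E. After the last region 2 numbers in the names belong to no region analysed here, and the next listed region lay 866 kb beyond the gene (score 75).

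The strongest Sfi1 region lay also inside Gm33862, a long non-coding RNA gene within Sfi1 (3137076 to 3139791, plus strand). The RefSeq table of GRCm38.p6 holds the 300 bp around its start, 250 before and 50 after, at chr11:3136826-3137125 on the plus strand. This stretch is printed because it ends 93 bp before the region and is the promoter sequence nearest to it.
Gm33862 promoter: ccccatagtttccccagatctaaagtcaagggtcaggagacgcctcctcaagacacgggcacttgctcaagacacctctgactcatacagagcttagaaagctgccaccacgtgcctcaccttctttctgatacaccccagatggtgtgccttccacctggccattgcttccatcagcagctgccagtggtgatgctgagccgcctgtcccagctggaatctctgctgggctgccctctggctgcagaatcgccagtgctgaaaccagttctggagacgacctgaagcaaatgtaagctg
It has a GC content of 55.7%. No letters are in capitals because neither of 2 motifs searched on both strands was found. TGCACAC, a motif known for Zscan4c, was in 4.40% of the 32851 promoter stretches of the same length, and the telomere repeat TTAGGG was in 10.6%. The absence of these letters from this window says nothing about binding by the factor. None of the 15 regions overlapped a promoter stretch of the table, as 39 of all 4973 (0.784%) did. Of the 5 genes only Lars2 has a stretch there.

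The gene counts can be read against all annotated genes. Of 49603 nuclear genes, 6411 (12.9%) had a listed region in the body or within 20 kb. With the 37 mitochondrial genes, which all count by this limit, the share was 13.0%. It was 15.9% among protein-coding and 8.39% among microRNA genes. As many regions as at Sfi1 (6 or more) were found at 0.0504% of nuclear genes, or 25 of them, and as many as at Mir101c (2 or more) at 2.11%. A highest score of at least 273, that of Sfi1, was found at 0.240% of nuclear genes, one of at least 801, that of Lars2, at 0.0524%, and one of at least 4515 at Mir101c alone (0.00202%). These shares contain the genes themselves, which were chosen for such values, and nothing is read from them beyond their place in the list. The listed regions that scored above 4515 lay on the scaffold JH584304.1, and genes on scaffolds were not used here.

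**Figure D3:**
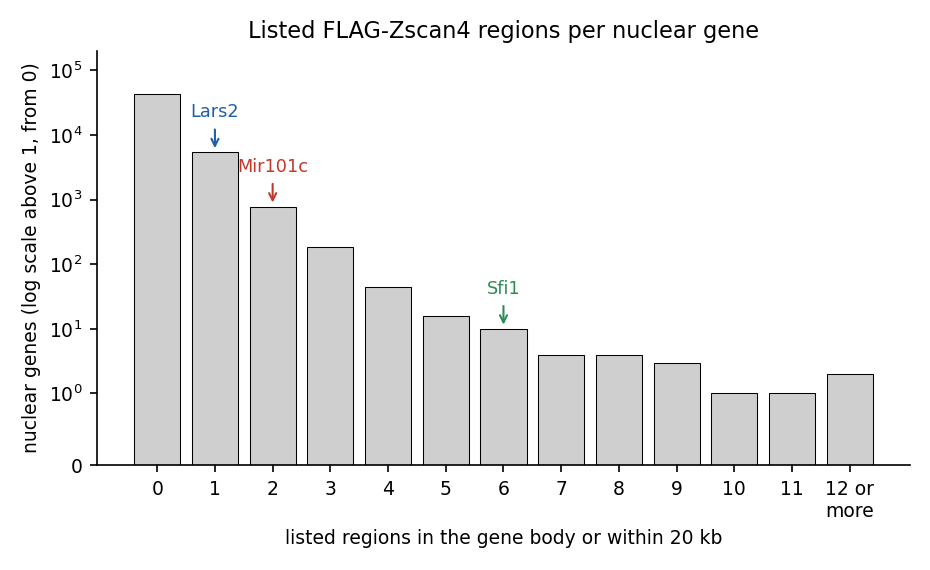
Number of nuclear genes (log scale above 1, starting at 0) by the number of listed regions in the gene body or within 20 kb; arrows mark the bars that contain Lars2 (1 region), Mir101c (2) and Sfi1 (6). Most genes, 43192, had none, and 10 genes had 6.

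The number of regions per Mb was set beside that of the whole chromosome. The Sfi1 window of 111 kb held 53.8 regions per Mb (95% exact Poisson interval 19.7 to 117), and chromosome 11 held 1.99 (1.75 to 2.27). The Mir101c window of 40.1 kb held 49.9 per Mb (6.04 to 180), and chromosome 9 held 2.02 (1.77 to 2.29). The Lars2 window of 136 kb held 7.37 per Mb (0.187 to 41.0), on the same chromosome. The intervals cover counting error only and treat regions as independent, while 15.2% of the regions elsewhere in the list have another within 10 kb. The genes were chosen for their regions, so the rates are given side by side and nothing is read from their difference. For the mitochondrial genome the rate was 389 per Mb (143 to 847), and its copy number was not measured, so it cannot be set against a nuclear rate.

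The 15 regions had a median score of 121 and a median width of 328 bp, and the other 4958 had medians of 33.0 and 310 bp. Of the 15, 12 scored above the list median, 6 were among the 150 highest of 4973 and 3 among the 50 highest. The nearest other region lay within 10 kb for 13 of the 15, and for 753 of the other 4958 (15.2%). The Lars2 region was the most isolated of the 15, at 37.0 kb from the next, and at Sfi1 the region of score 51 stood 14.5 kb from its neighbour. The median distance to the nearest region was 3.35 kb for the 15 and 109 kb for the others. On the mitochondrial genome of 15.4 kb neighbouring regions lay at most 4955 bp apart, so all 6 regions there had a neighbour within 10 kb. The places were chosen with their region scores in view, so nothing is read from these differences in score or distance.

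The genes that work with the 5 members were looked up in lists chosen by function, with the same limit of 20 kb. Of 21 other aminoacyl-tRNA synthetase and related genes for mitochondrial translation, 3 had a region (14.3%). Among them were Gars, the glycine enzyme, with a score of 43 at 11.2 kb, and Fars2, the phenylalanine enzyme, with 33 at 2.26 kb. Of 14 centrin, centriole and centrosome genes other than Sfi1, 1 had a region, Cdk5rap2, a scaffold of the pericentriolar material, with a score of 23 in its body. Of 7 other genes of the miR-101 family and of microRNA processing, 1 had a region, Dgcr8, the partner of Drosha, with 27 at 6.19 kb. Of 14 nuclear genes for the upkeep and transcription of mitochondrial DNA, 2 had a region. Tfam, which packages that DNA, had a score of 13 in its body, and the transcription factor gene Tfb2m had 2 regions with a score of 18 each. All of these scores lay below those of Lars2 and of mt-Rnr2. Those 2 genes were chosen with their scores in view, so nothing is read from that. The share of genes with a region was between 7.14% and 14.3% in each list. Over all nuclear genes the share was 12.9%, and over nuclear protein-coding genes 15.9%. The median highest score was 43.0 over the 3 synthetase genes with a region and 15.5 over the 2 upkeep genes. Cdk5rap2 and Dgcr8, each the only gene of its list with a region, had 23 and 27. Over all nuclear genes with a region the median was 34.0, and medians of so few genes say little.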

How the data were processed

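Regions listed for FLAG-Zscan4 were taken from 1 list made by immunoprecipitation from J1 cells overexpressing Zscan4. Per the submitters' processing notes, the tools cutadapt, Bowtie2, MACS2 and deepTools and build mm10 were used, and no version, threshold or setting is given in the sources used here. Each score is a whole number that the authors deposited beside its region, with no scale stated. It was used inside this list only, to order and select regions, for medians of score, and divided by region width for a ranking per kb. Positions are in bp as the authors deposited them, with starts counted from 0, and 1 was added for printing. Only regions that passed the authors' threshold are listed, so a gene without one is not shown to be unbound.

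Genes came from a RefSeq table of GRCm38.p6 (49997 genes, 49640 used). Genes without a used chromosome were left out, as were 340 whose start is under 3 Mb, outside the Y chromosome and the mitochondrial genome. Ties in score share the better rank. The rate of a chromosome is over the span from its first to its last annotated or listed position. Shares are plain percentages and rates have 95% exact Poisson intervals. No test was run, because each group has 1 sample and the genes were chosen for their scores. Named genes were the 5 members, the genes overlapping or next to them, and up to 4 genes per list by highest score, of which 1 is not reported here. Named outside this rule, after their values were seen, are Limd1, the mitochondrial genes without a region, and in the closing part Rn7sk, Rmrp, Rpph1 and the genes at narrow regions of high score (Washc2, Cntnap5b, Gm46595, Gm40034, Gm10340). The members and lists were chosen with earlier results of these data known. Window counting was tested on simulated data. Python 3.11.15, pandas 2.3.3, numpy 2.4.6, scipy 1.17.1 and matplotlib 3.10.9 were used. Alternatives were windows of 10 and 50 kb, overlap in place of midpoints, regions of high score only, merging within 1 kb, and other rankings.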

Additional observations from a re-analysis of the deposited data

How the results depend on the processing

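The number of regions on the mitochondrial genome was 6 under all alternatives but 1, the 1252 regions of highest score, which left 5. Only the cuts by score could change this count. Every region there was taken whatever the window or overlap, and the smallest gap between them (1014 bp) exceeds the merging limit of 1 kb. Overlap of at least 1 bp, overlap of at least 50% of a region, and merging within 1 kb left the counts at Lars2, Sfi1 and Mir101c as they were. Within 10 kb, Mir101c had 0 regions and Sfi1 4, and 8.89% of all genes had one. Within 50 kb, Lars2 had 2 regions and Mir101c 6, and 23.2% of all genes had one. Among the 2510 regions of highest score (33 or more), Sfi1 had 3 and 6.76% of genes had one. Among the 1252 highest (55 or more), Sfi1 had 2 and 3.21% of genes had one. The count at Mir101c therefore depends on the window. Ranked by score per kb of width, the best region was at rank 8 for Lars2, 61 for Sfi1, 5 for Mir101c and 38 for the mitochondrial genome. Ranked by width, the widest region of each place, not always the one of highest score, was at 4864, 674, 94 and 1058 in the same order. On chromosomes and the mitochondrial genome alone, leaving out unplaced scaffolds, the ranks by score were 21, 100, 1 and 76. No paired analysis was possible because every group has 1 sample and no result comes from a test. Depth is unknown, so no limit of detection was computed, and the 8 numbers missing from the run of names at the start of chromosome 9, with 2 after Sfi1, may stand for regions not analysed here.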

Other observations

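Among 14 other high-copy or amplified genes that were looked up by the same limit, 3 had a region (21.4%, against 12.9% of all nuclear genes). Since 2 of them count the same regions, the share says little about the list. All 3 lie at the far end of the X chromosome, where the mouse has its pseudoautosomal region shared with the Y chromosome. Mid1, a ubiquitin ligase gene that spans the boundary of that region, had 4 regions in its body or within 20 kb, with scores of 491 (chrX:169994497-169995941, rank 52), 155 (rank 281), 86 (rank 642) and 84 (rank 660). The region of score 155 lay in the body of Mid1 (chrX:169989429-169989820). Erdr1 is a gene of the pseudoautosomal region, and 3 of these 4 regions also lay within 20 kb of it. Asmt, the gene of the last enzyme of melatonin synthesis, had 1 region in its body (chrX:170673272-170673501, score 111, rank 471). Small nuclear and cytoplasmic RNA genes of the same list, such as Rn7sk, Rmrp and Rpph1, had no region within 20 kb.

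Narrow regions of high score like those of Lars2, mt-Rnr2 and ND4 were few. The limits used here, a width of at most 303 bp and a score of at least 240, were set after the data were seen, at the values of the mt-Rnr2 and ND4 regions. Of 140 regions with such a score, 14 (10.0%) were that narrow, while 48.2% of all regions were. The mt-Rnr2 and ND4 regions pass these limits by construction, so nothing is read from the difference between the shares. Besides the 3 named, 5 lay on chromosome 8 between 20 and 21 Mb and 1 in the group at the start of chromosome 9 (score 1148). The others were in the bodies of Washc2 (chr6:116242108-116242358, score 645), Cntnap5b (chr1:100180124-100180356, score 499) and the long non-coding RNA gene Gm46595 (chr17:70963663-70963885, score 250), beside Gm40034 on chromosome 2 (chr2:181918529-181918752, score 476) and near Gm10340 on chromosome 14 (chr14:3124567-3124822, score 294). Washc2 encodes a subunit of the WASH complex, which acts in endosomal sorting, and Cntnap5b a cell adhesion protein of the neurexin family.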
